A study of Homo sapiens with 21 samples.

Results

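Circular RNAs were compared between NCI-H1975 cells transfected with FASN and NCI-H1975 cells transfected with the plasmid pCMV6, which served as the plasmid control. These 6 libraries, 3 of each kind, were chosen by their labels from the 21 libraries of a study of human lung cell lines. NCI-H1975 is an EGFR-mutant lung cancer line, and FASN and pCMV6 cells alike were kept in 50 µg/ml of G418, which kills cells without a resistance gene. A further 3 libraries, of NCI-H1975 cells with the same EGFR-mutant label and no plasmid or resistance code, were used to see on which side of the untransfected line each transfected line lay. The labels give passages 20 to 31 for all 9 libraries. They do not tell whether a transfected line was 1 clone or a pool, or whether replicates were grown separately. The p-values of the edgeR test therefore rest on a spread between libraries that can be technical. This spread was estimated jointly over all 21 libraries, and not for each circRNA in the 6 libraries alone.

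A circular RNA (circRNA) forms when the splicing machinery joins the end of an exon back to the start of the same or an earlier exon. The product is a closed loop without a cap or a poly(A) tail, which resists exonucleases and often outlives the linear transcript of its gene. It is counted by reads that cross this back-splice junction. FASN encodes fatty acid synthase, which builds palmitate from acetyl-CoA and malonyl-CoA for membranes and for the lipid modification of proteins, and many tumours carry high levels of it. The deposited table numbers its circRNAs from 1 to 124082 and pairs them with no gene, coordinate or sequence. The results therefore describe circRNAs by level and pattern, the identifiers of 2 higher and 2 lower circRNAs are printed, and neither the level of FASN nor any marker gene of the line was analysed here.

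The libraries held 106020 to 147193 back-splice reads in FASN cells, 95808 to 110456 in pCMV6 cells and 138753 to 170423 in NCI-H1975 cells. Of 124082 circRNAs, 9175 passed the filter on low counts and were tested. Levels are given as CPM, the reads of a circRNA per mega (M) of scaled reads in the circRNAs tested. Each library is 1 bulk sample, so fewer cells that make a circRNA and less of it per cell cannot be told apart. Most circRNAs had only a few reads, and small differences between such circRNAs were not detectable at this depth. Osimertinib-resistant replicate 2, a library of another NCI-H1975 group that enters the shared estimate of spread, stood apart from its group. It held 79.3% of its reads in the circRNAs tested, against 76.0% and 76.8% in replicates 1 and 3. Without it 36 circRNAs were called between FASN and pCMV6 in place of 29.

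FASN cells differed from pCMV6 cells in few circRNAs. edgeR's quasi-likelihood test called 29 of 9175 circRNAs at an adjusted p under 0.05, or 0.316% of those tested, of which 18 were higher (0.196%) and 11 lower (0.12%) in FASN cells. At an unadjusted p under 0.05 there were 729 circRNAs, 7.95% of those tested. The 29 had a median of 23.5 reads per library over the 6 libraries, against 3.83 for all circRNAs tested. Their median size of change was 1.68 on the log2 scale, against 0.62 for all. The p of this same contrast chose the 29, so nothing is read from these 2 differences. The median size includes circRNAs without a read in 1 of the groups, whose fitted changes are no measured folds. The split by direction rested on the scaling: with library totals alone, 14 were higher and 16 lower. The count of calls was 14 without pCMV6 replicate 1, 18 without pCMV6 replicate 3, 18 without FASN replicate 2 and 16 without FASN replicate 3.

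**Figure D1:**
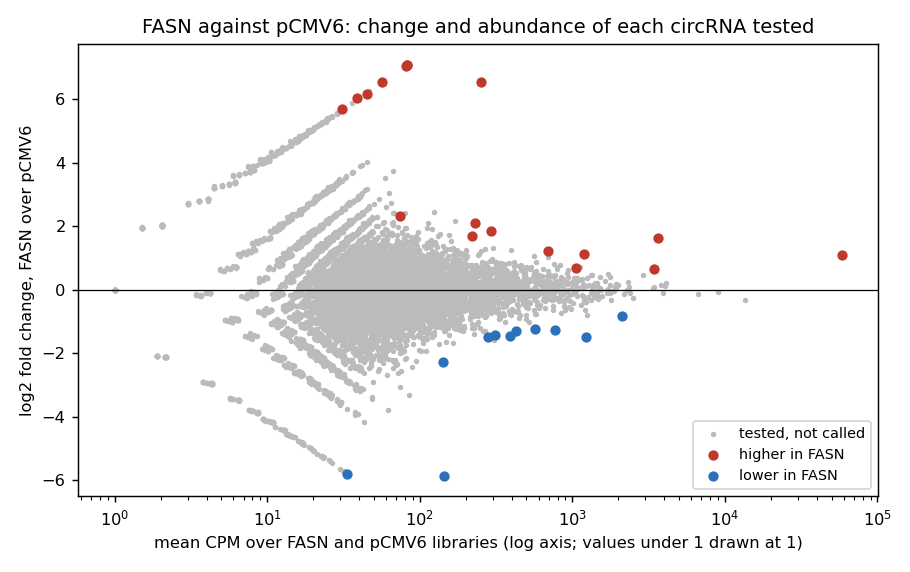
Each point is 1 of the 9175 circRNAs tested, with its mean CPM over the 6 libraries on a log axis and the fitted log2 fold change of FASN over pCMV6 cells on the vertical axis. Red points are the 18 circRNAs called higher and blue points the 11 called lower in FASN cells. Points on the outer diagonals have no read in one of the groups, and their fitted changes depend on the prior count and are no measured folds.

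The most abundant circRNA of the line, hsa_circ_11052, gave the smallest p. It stood at 77165, 80288 and 81498 CPM in the FASN libraries, against 37758, 37058 and 37194 CPM in the pCMV6 libraries. All FASN libraries lay above all pCMV6 libraries, by far more than the spread within either group. In NCI-H1975 cells it stood at 78662, 82351 and 80017 CPM, a range that overlapped with that of the FASN libraries. The log2 change of FASN over pCMV6 was 1.09 ± 0.09 (SE, edgeR adjusted p = 2.46e-29), a 2.13-fold higher level.

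hsa_circ_6671, of rank 5 by reads in NCI-H1975 cells, had the next smallest p among the higher circRNAs. It stood at 5772, 4879 and 5795 CPM in the FASN libraries and at 1471, 2113 and 1691 CPM in the pCMV6 libraries. The lowest FASN library thus lay well above the highest pCMV6 library. NCI-H1975 libraries held 4984, 5027 and 5509 CPM. The log2 change of FASN over pCMV6 was 1.64 ± 0.18 (SE, edgeR adjusted p = 5.86e-17), a 3.12-fold higher level. All 12 libraries of the NCI-H1975 line, osimertinib-resistant ones included, held reads of hsa_circ_6671, and no library of NL20, the bronchial epithelial line of the study, or of PC-9, its other lung cancer line, did. Being unread outside NCI-H1975 was the case for 2 of the 29 called circRNAs, against 82 (0.894%) of all those tested.

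**Figure D2:**
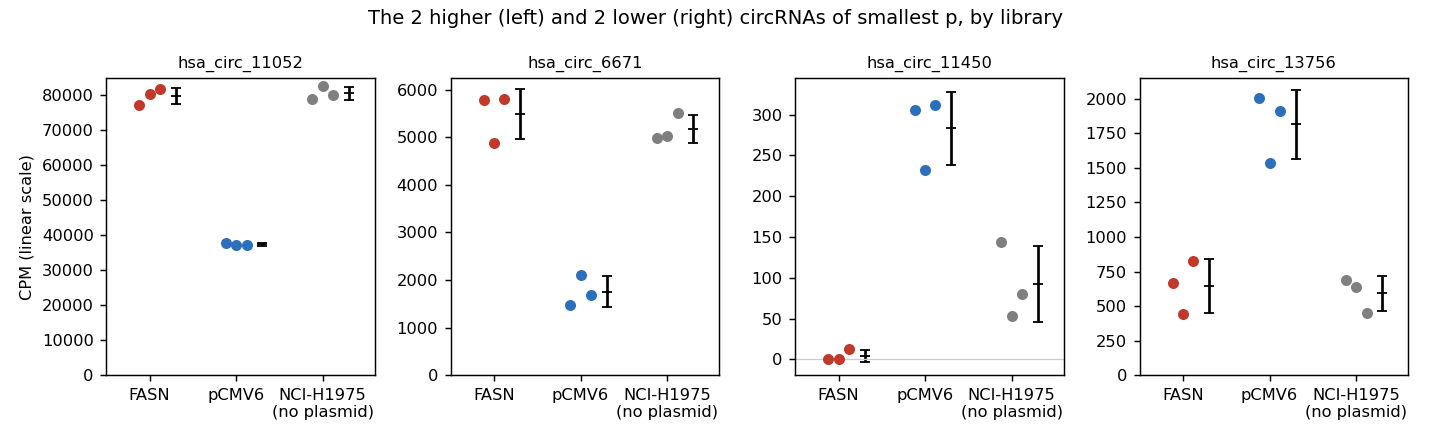
Points are single libraries, in CPM on a linear scale, of the 2 higher and the 2 lower circRNAs of smallest p. Black marks are the mean and SD of 3 libraries. For hsa_circ_11052, hsa_circ_6671 and hsa_circ_13756 the ranges of NCI-H1975 and FASN libraries overlap, and for hsa_circ_11450 the NCI-H1975 libraries lie between FASN and pCMV6.

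Another 8 higher circRNAs were read in both kinds of cell, with 6 to 649 reads in pCMV6 cells. The most abundant of them, the eleventh in order of p and of rank 10 in NCI-H1975 cells, stood at 3835, 4510 and 4303 CPM in the FASN libraries and at 2794, 2538 and 2667 CPM in the pCMV6 libraries. Its groups did not overlap, although this was the smallest change among the higher calls, 1.58-fold (edgeR adjusted p = 0.0175). The seventh stood at 1936, 1035 and 1899 CPM with FASN and at 859.7, 682.9 and 689.5 CPM with pCMV6 (log2 change 1.11 ± 0.23 SE, edgeR adjusted p = 0.00149). FASN replicate 2 was the lowest of its group there and still above every pCMV6 library. The ninth stood at 444.0, 324.1 and 357.6 CPM with FASN and at 79.2, 77.3 and 104.1 CPM with pCMV6, 4.27-fold higher (edgeR adjusted p = 0.00388). The tenth stood at 1135, 801.2 and 974.0 CPM with FASN and at 237.5, 528.3 and 494.4 CPM with pCMV6, 2.31-fold higher (edgeR adjusted p = 0.00999). In both, every FASN library was above every pCMV6 library. When each of the 6 libraries was left out in turn, the seventh and the ninth were called in 5 of the 6 fits, the tenth in 3 and the eleventh in 2. The thirteenth, fourteenth, fifteenth and eighteenth had edgeR adjusted p-values of 0.0300, 0.0369, 0.0388 and 0.0419 and were called in 1 to 3 of those fits. Over the 10 higher circRNAs with more than 1 read in pCMV6 cells, the fold ran from 1.58 to 4.93.

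The other 8 higher circRNAs were absent, or nearly so, from the pCMV6 libraries. The third in order of p had 50, 49 and 35 reads in the FASN libraries, 1, 0 and 0 in the pCMV6 libraries and 33, 63 and 55 in the NCI-H1975 libraries. FASN and NCI-H1975 libraries overlapped, and the pCMV6 libraries lay far below both. With 134 reads in FASN cells and 1 in pCMV6 cells, the ratio was 119.1 (95% exact conditional interval 21.0 to 4739, which covers counting error only; edgeR adjusted p = 3.57e-13). It was called in all 6 fits that left a library out.

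For 7 of these circRNAs no pCMV6 library held a read. In FASN cells they had 17 to 48 reads over 3 libraries and in NCI-H1975 cells 20 to 51, together 230 reads over the FASN, 0 over the pCMV6 and 226 over the NCI-H1975 libraries. Taking 3 counts over the group as the floor in pCMV6 cells, and the FASN reads as exact, they were at least 5.04-fold to at least 14.2-fold higher. Counting error in the FASN reads is not part of these floors. The fourth, with 11, 16 and 17 reads in the FASN libraries, was at least 13.0-fold higher (edgeR adjusted p = 1.69e-06). The sixth had 7, 30 and 11 reads, so that FASN replicate 2 held most of them, and was at least 14.2-fold higher (edgeR adjusted p = 0.000125). The fourth, the fifth and the sixth were called in all 6 fits that left a library out. The eighth had 14, 14 and 16 reads in the FASN libraries, none in any pCMV6 library and 21, 15 and 15 in the NCI-H1975 libraries (edgeR adjusted p = 0.00348). It was read in 6 of the 21 libraries of the study, those of FASN and NCI-H1975 cells, and in no library of osimertinib-resistant NCI-H1975, NL20 or PC-9. The twelfth had 15, 4 and 4 reads in the FASN libraries, most of them in replicate 1, and was at least 6.81-fold higher (edgeR adjusted p = 0.0223), with a call in 2 of the 6 fits. The scarcest, the seventeenth, had 3, 7 and 7 reads in the FASN libraries (edgeR adjusted p = 0.0388) and was called in 1 of the 6 fits, as was the sixteenth.

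Among the 11 lower circRNAs, hsa_circ_11450 gave the smallest p. It had 0, 0 and 1 reads in the FASN libraries, against 27, 18 and 24 in the pCMV6 libraries. NCI-H1975 libraries held 15, 6 and 10 reads, between FASN and pCMV6 and without overlap with either. With 1 read in FASN cells, its level was 77.6-fold higher in pCMV6 than in FASN cells, with a 95% exact conditional interval of 13.5 to 3110 for counting error (edgeR adjusted p = 6.58e-09). It was called in all 6 fits that left a library out. Outside the NCI-H1975 line hsa_circ_11450 was unread in NL20 and had 170 reads over 3 libraries in PC-9 cells. In gefitinib-resistant PC-9 cells it had 27 reads over 3 libraries.

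hsa_circ_13756 was next. It stood at 666.0, 441.1 and 826.1 CPM in the FASN libraries and at 2002, 1533 and 1912 CPM in the pCMV6 libraries. No FASN library reached the lowest pCMV6 library. NCI-H1975 libraries held 691.4, 641.8 and 451.7 CPM, within the range of FASN. The log2 change of FASN over pCMV6 was -1.51 ± 0.23 (SE, edgeR adjusted p = 1.02e-07), and it was called in all 6 fits that left a library out. hsa_circ_13756 was read in all 21 libraries of the study, as were 13 of the 29 called circRNAs (44.8%) and 27.0% of those tested.

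For 6 of the lower circRNAs, hsa_circ_13756 among them, NCI-H1975 cells lay nearer to FASN than to pCMV6. They were 1.77-fold to 2.84-fold lower in FASN than in pCMV6 cells. The third lower circRNA stood at 357.6, 486.1 and 517.8 CPM with FASN, at 1380, 734.4 and 1145 CPM with pCMV6 and at 518.6, 312.0 and 483.9 CPM in NCI-H1975 libraries (log2 change of FASN over pCMV6 -1.26 ± 0.22 SE, edgeR adjusted p = 2.64e-05). The fifth and most abundant stood at 1788, 1611 and 1171 CPM with FASN, at 3065, 2706 and 2342 CPM with pCMV6 and at 1498, 2228 and 1532 CPM in NCI-H1975 libraries (log2 change -0.83 ± 0.18 SE, edgeR adjusted p = 0.00388). In both the pCMV6 libraries were the highest, and FASN and NCI-H1975 libraries overlapped. The third was called in all 6 fits that left a library out, the fifth in 4, the sixth in 2 and the eighth and eleventh in 1 each.

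For the other 5 lower circRNAs, hsa_circ_11450 and the fourth, the seventh, the ninth and the tenth, NCI-H1975 cells lay nearer to pCMV6. The fourth stood at 246.7, 261.1 and 221.9 CPM in the FASN libraries, at 531.6, 489.6 and 806.6 CPM in the pCMV6 libraries and at 595.4, 508.1 and 443.6 CPM in the NCI-H1975 libraries. All FASN libraries lay below all those of the other groups. It fell by 1.31 ± 0.27 on the log2 scale in FASN against pCMV6 cells (SE, edgeR adjusted p = 0.00106), a call that was lost without pCMV6 replicate 3 (edgeR adjusted p = 0.175). The ninth stood at 246.7, 180.0 and 197.3 CPM with FASN, at 599.5, 515.4 and 611.4 CPM with pCMV6 and at 326.5, 481.3 and 443.6 CPM in NCI-H1975 cells (edgeR adjusted p = 0.0369 for FASN against pCMV6). Again the FASN libraries were the lowest, but the call was lost whichever of the 6 libraries was left out. The seventh had 0 reads in FASN cells, 12, 4 and 1 in the pCMV6 libraries and 1, 4 and 9 in the NCI-H1975 libraries (edgeR adjusted p = 0.00988 for FASN against pCMV6). With a floor of 3 counts in FASN cells and pCMV6 reads taken as exact, it was at least 6.38-fold lower in FASN cells. The tenth had 3, 6 and 4 reads in the FASN libraries, 21, 9 and 27 in the pCMV6 libraries and 21, 8 and 10 in the NCI-H1975 libraries (edgeR adjusted p = 0.0388 for FASN against pCMV6). They were called in 2 and 1 of the 6 fits. Set against NCI-H1975 cells, none of the 5 passed the test in FASN cells, the smallest edgeR adjusted p being 0.072, for hsa_circ_11450.

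Over the 29 called circRNAs, the mean log2 CPM of the NCI-H1975 libraries lay nearer to that of FASN for 24, which were all 18 higher and 6 of the 11 lower ones. Over all circRNAs tested it lay nearer to FASN for 54.4%. Among those with an unadjusted edgeR p under 0.05 that were not called, it did so for 64.4%. That was 72.3% of the higher and 56.0% of the lower ones. For the 18 higher called circRNAs, FASN minus NCI-H1975 ran from -0.68 to 1.25 on the log2 scale. For the 10 of them with more than 1 read in pCMV6 cells, pCMV6 minus NCI-H1975 ran from -2.49 to -0.51, with a median of -1.47, beside a median of 0.04 for FASN minus NCI-H1975. For the 6 lower circRNAs with NCI-H1975 nearer to FASN, pCMV6 minus NCI-H1975 had a median of 1.19 and FASN minus NCI-H1975 one of -0.05. For the 3 of the other 5 with more than 1 read in FASN cells, FASN minus NCI-H1975 ran from -1.28 to -1.01. In these 3, the fourth, the ninth and the tenth, pCMV6 minus NCI-H1975 was 0.24 ± 0.25, 0.46 ± 0.35 and 1.00 ± 0.51 (SE). The edgeR adjusted p-values were 0.903, 0.846 and 0.634, so no difference of pCMV6 from NCI-H1975 cells was called. The libraries of pCMV6 and NCI-H1975 cells overlapped for the fourth and the tenth, and did not for the ninth. The lower circRNAs were split by these same distances, so the values describe the split and nothing more is read from them. The comparisons with NCI-H1975 share the FASN or the pCMV6 libraries with that of FASN against pCMV6 and are no independent support for it.

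**Figure D3:**
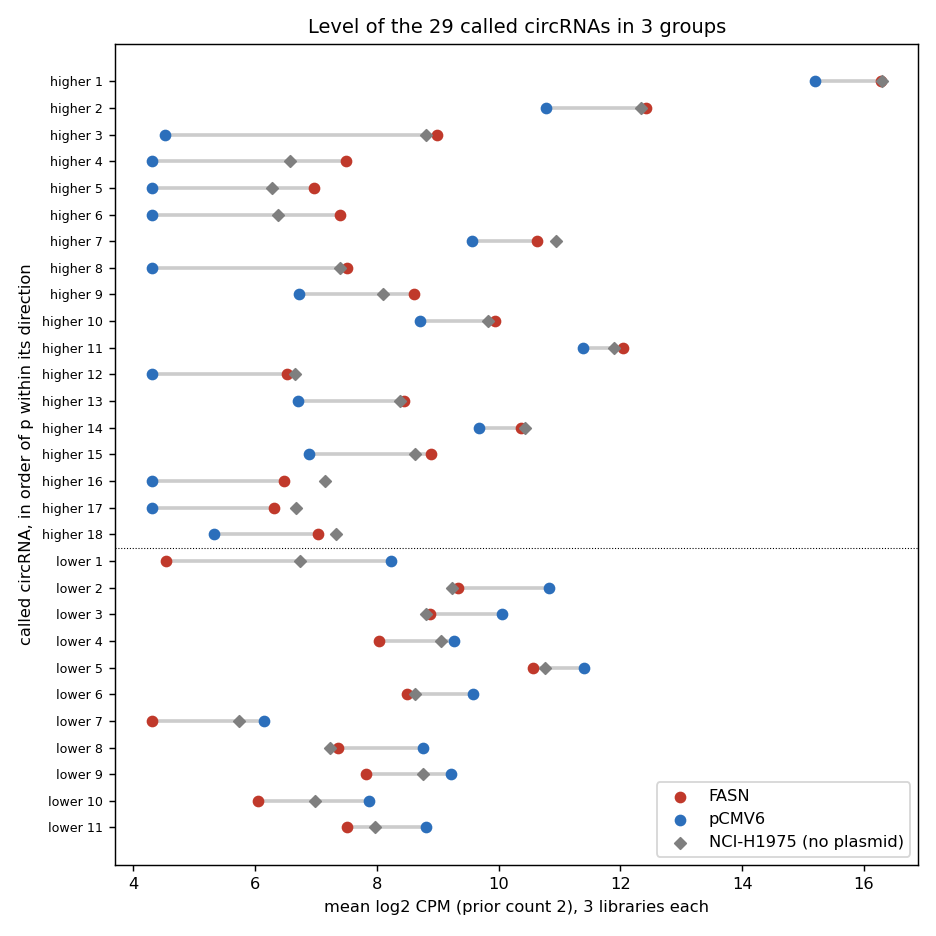
Each line is 1 of the 29 called circRNAs, ordered by p within its direction, with the mean log2 CPM of 3 libraries in FASN, pCMV6 and NCI-H1975 cells. For all 18 higher circRNAs the grey diamond of NCI-H1975 lies nearer to FASN than to pCMV6, and for 5 of the 11 lower circRNAs it lies nearer to pCMV6.

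In the same fit over all 21 libraries, FASN and NCI-H1975 cells differed in 0 of 9175 circRNAs (0%) at an edgeR adjusted p under 0.05. At an unadjusted p under 0.05 there were 336 (3.66%). DESeq2 and limma-voom called 0 as well, and an edgeR fit of the 9 libraries of these 3 groups, without a replicate block, called 2. Between pCMV6 and NCI-H1975 cells edgeR called 33 (0.36%), of which 11 were higher and 22 lower in pCMV6. The count of 33 was 11 without pCMV6 replicate 1, 20 without pCMV6 replicate 2 and 21 without NCI-H1975 replicate 1. The pCMV6 libraries were the shallowest of the 3 groups on average, and the part of depth in these counts was not tested.

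The osimertinib-resistant NCI-H1975 cells, kept in 1 µM of that EGFR inhibitor, are in none of the groups compared. Their libraries do enter the shared filter, scaling and estimate of spread. Their mean log2 CPM lay nearer to FASN for 16 of the 29 called circRNAs and nearer to pCMV6 for 13, beside 49.6% nearer to FASN over all circRNAs tested. Without replicate 2, which stood apart, it was 17 and 12. hsa_circ_6671 stood at 1906, 2606 and 1744 CPM in their 3 libraries, below every FASN and NCI-H1975 library and overlapping with the pCMV6 libraries. hsa_circ_11052 stood at 96239, 144167 and 104519 CPM, above every library of the other groups of the line.

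No library of FASN overlapped with those of pCMV6 for any of the 29 called circRNAs. Over all circRNAs tested, 6.43% had all FASN libraries above all pCMV6 libraries and 5.57% had all of them below. Just outside the threshold, the next higher circRNAs had 25 and 15 reads in FASN cells and 0 in pCMV6 cells (edgeR adjusted p = 0.0571 and 0.0596). The next lower one had 9, 20 and 13 reads in the FASN libraries against 58, 24 and 32 in the pCMV6 libraries (edgeR adjusted p = 0.0681). Just inside it, the last higher circRNA had 6, 23 and 7 reads with FASN and 0, 4 and 2 with pCMV6. The last lower one had 13, 22 and 11 reads with FASN and 24, 34 and 50 with pCMV6 (edgeR adjusted p = 0.0413).

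Presence and absence were unequal between the groups beyond the called circRNAs. Of the 57932 circRNAs with a read in any of the 6 libraries, 507 (0.875%) were read in all 3 FASN libraries and in no pCMV6 library, and 153 (0.264%) in all 3 pCMV6 libraries and in no FASN library. Their reads were few, with a median of 6 over the 3 libraries in both sets. The filter on low counts kept 84 of the 507 and 23 of the 153, of which 7 and 1 were called, beside 0.316% of all circRNAs tested, and since presence in this same contrast chose them nothing is read from these counts. With all libraries thinned to 95808 reads, 400.6 were on average read in all FASN and no pCMV6 libraries, and 184.1 the other way. In NCI-H1975 cells 120 of the 507 were read in all 3 libraries and 70 in none, and of the 153 it was 20 and 46. No test was run on these counts.

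The pCMV6 libraries held fewer circRNAs that were read once. At 95808 reads, as the mean of 100 draws, 8487, 9686 and 8392 circRNAs had exactly 1 read in the FASN libraries, against 6384, 6022 and 6640 in the pCMV6 libraries and 10080, 8440 and 9214 in the NCI-H1975 libraries. With 10 or more reads there were 1659, 1605 and 1640 circRNAs in the FASN libraries, against 1774, 1790 and 1791 in the pCMV6 libraries and 1616, 1673 and 1658 in the NCI-H1975 libraries. So every pCMV6 library had fewer circRNAs of 1 read, and more of at least 10, than any FASN or NCI-H1975 library. The osimertinib-resistant libraries and those of the other lines were not thinned and are not compared here. Counting every circRNA with a read, FASN minus pCMV6 was 2204 distinct circRNAs, with an exact two-sided permutation p of 0.1, the smallest that 3 libraries against 3 allow, and 0.1 after adjustment over 3 such tests. The difference turned round, at -303, for circRNAs of at least 2 reads. The part of this difference in the absences from the pCMV6 libraries was not tested.

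**Figure D4:**
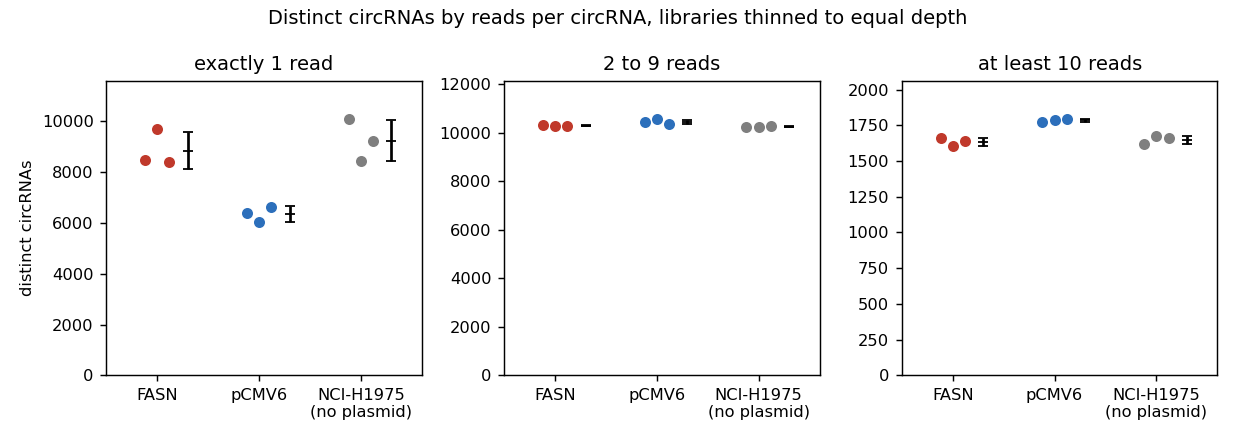
Points are single libraries thinned to 95808 reads, and black marks are the mean and SD of 3 libraries. The vertical axes, from 0, give the number of circRNAs with exactly 1, with 2 to 9 and with at least 10 reads. The pCMV6 libraries lie lowest in the first panel and highest in the other panels.

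Reads were also followed by abundance class, with circRNAs ranked by their reads in the NCI-H1975 libraries, which are in neither group compared. Rank 1, hsa_circ_11052 alone, held 6.05% ± 0.14 of all reads in FASN cells and 2.98% ± 0.042 in pCMV6 cells (SD, n = 3). Ranks 2 to 10 held 4.06% ± 0.095 in FASN cells and 4.07% ± 0.063 in pCMV6 cells, and ranks 11 to 100 held 10.1% ± 0.022 in FASN cells and 10.2% ± 0.10 in pCMV6 cells. All circRNAs beyond rank 100 together held 79.8% ± 0.26 in FASN cells and 82.7% ± 0.20 in pCMV6 cells, a difference of -2.91 percentage points (exact two-sided permutation p = 0.1, and 0.1 adjusted over 3 tests). Without hsa_circ_11052 in the totals, that difference was -0.31 points. The top 10 circRNAs of each library held 2.88 points more of the reads in FASN than in pCMV6 cells (exact two-sided permutation p = 0.1, and 0.1 adjusted over 3 tests). Without hsa_circ_11052 their share was 4.62% ± 0.11 in FASN cells and 4.62% ± 0.15 in pCMV6 cells, a difference of 0.0005 points. By class, 2 of the 9 circRNAs at ranks 2 to 10 were called, 3 of the next 90, 11 of the next 900 and 12 of the 7813 tested with lower ranks. Of the 362 tested that were unread in NCI-H1975 cells, 0 were called. Over all circRNAs tested the share was 0.316%. A test on counts detects smaller changes where reads are many, so nothing is read from the fall across classes.

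**Figure D5:**
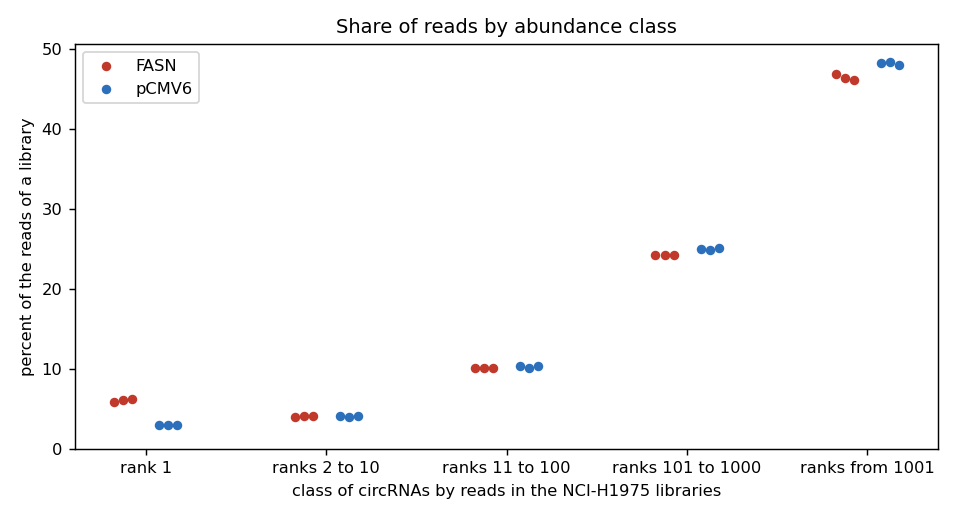
Points are single libraries, and the vertical axis gives the percentage of a library's reads held by circRNAs of each class, ranked by their reads in the NCI-H1975 libraries. FASN libraries hold 6.05% of their reads in rank 1 on average and pCMV6 libraries 2.98%, while at ranks 2 to 10 and 11 to 100 the points of both groups lie close together.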

How the data were processed

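The authors deposited raw counts of back-splice reads, 1 column per library, without normalization. Per the submitters' processing notes, hg38, HISAT2 and DESeq2 were used, with no roles stated. Which circRNA caller, filters and strand setting were used is not given in the sources used here. Columns were matched to samples by title.

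In R 4.3.3, edgeR 4.0.16 was run with filterByExpr (minimum count 5, minimum total 15; 7.39% of circRNAs kept), TMM scaling and 1 robust quasi-likelihood model with a mean per group over all 21 libraries. Benjamini-Hochberg adjustment covered all circRNAs tested. For 99.2% of them the spread came from the trend across circRNAs. The SE is the log2 change over the square root of F. Floors cover counting error in the unread group only and take the reads of the other group as exact. The 95% intervals cover counting error only. The prior count of log2 CPM was 2. DESeq2 1.42.0 and limma 3.58.1 were alternatives, and the code was tested on simulated data. The called circRNAs are given singly or, for some, by counts and ranges, with identifiers for the 2 of smallest p in each direction. Members and lists were chosen with earlier results of these data known. Within these 3 groups no library was a copy of another (chi-square of counts over its degrees of freedom, 2.08 to 2.67).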

Additional observations from a re-analysis of the deposited data

How the results depend on the processing

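The count of 29 calls between FASN and pCMV6 was 8 without the filter on low counts, 14 to 26 with 1 library left out, and 23 to 37 in the other 12 settings. Among the 29 circRNAs no change reversed in a setting that tested it (25 of the 29 were tested with the compared groups alone, and 28 in the fits of 9 libraries), and 9 of them were called in all 6 fits that left a library out. Without pCMV6 replicate 1, 15 were no longer called, and 9 to 13 without any other. For pCMV6 against NCI-H1975, the count of 33 was 12 without the filter, 51 in a fit of the 9 libraries alone and 11 to 23 with 1 library left out. For FASN against NCI-H1975, the count of 0 was 2 in the fit of 9 libraries, 1 without osimertinib-resistant replicate 2 (added after the data were seen) and 0 to 1 with 1 library left out. Replicate numbers did not pair the libraries (correlations of same-numbered libraries -0.015 to 0.024), and with the replicate block 36 circRNAs were called between FASN and pCMV6, against 37 in the same 9 libraries with no block. Distinct circRNAs turned round to -303 at 2 or more reads and -150.2 at 10 or more. The share in the most abundant circRNAs differed by 2.58 points for the top 100 and 0.0005 without hsa_circ_11052, and the share beyond rank 100 by -2.47 points with ranks over all 21 libraries and -0.31 without hsa_circ_11052. With 1 library left out, 869 to 1537 circRNAs were read in all remaining FASN and no pCMV6 library, and 272 to 645 the other way, since fewer libraries had to meet the rule. For the other settings the cause was not tested.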

Other observations

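The circRNAs tested with numbers close above that of hsa_circ_11052 were looked at as a run. The run was seen in the values and then described, and it carries no test. The 6 circRNAs tested that are numbered 2 to 9 above it had 934 reads over the FASN libraries, 362 over the pCMV6 libraries and 1141 over the NCI-H1975 libraries. Their log2 changes of FASN over pCMV6 were 1.07 to 2.09, with 1.09 for hsa_circ_11052, beside 48.8% of all circRNAs tested with a change above 0. Of the 6, 2 were called by edgeR's quasi-likelihood test, beside 0.316% of all tested, and the other 4 did not pass it, with adjusted p-values of 0.205 to 0.651. The 2 tested at 5 and 4 below it and the one at 10 above it, with 3 to 9 reads in FASN or pCMV6 cells, had log2 changes of 0.34, -0.91 and -1.56. Within 10 numbers of hsa_circ_6671, hsa_circ_11450 and hsa_circ_13756, the circRNAs tested were 2, 5 and 4, and none of them was called. Across 3143 pairs of circRNAs with consecutive numbers, the Spearman correlation of these log2 changes was 0.05, a weak value in sparse counts. The pairs were taken from circRNAs read in the first column of the table, pCMV6 replicate 1. Numbers follow the first column in which a circRNA was read, so the run and its neighbours were also read in that library. The 7 higher circRNAs without a read in any pCMV6 library are therefore not among them. The sources used here do not say how numbers were ordered within a column.

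pCMV6 replicate 1 and osimertinib-resistant replicate 2 had the same total of 110456 reads. They were not copies, since their counts differed for 26167 circRNAs, and 19494 and 15244 circRNAs were read in them.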
